A study of Eucalyptus nitens with 12 samples.

Results

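GATA transcription factor 12 was followed through a single E. grandis gene, Eucgr.C00602, which the study annotates as a homologue of Arabidopsis GATA12. Transcripts of Eucalyptus nitens (shining gum) had been assigned to genes of E. grandis, and the gene was found by its identifier, as 1 transcript in the count table of each of 2 trials. It is 1 of 18778 genes listed in either table and 1 of 16184 listed in both. The gene was chosen by its measured counts in these libraries, selected on the difference between trees of low and high kraft pulp yield (KPY, the mass of pulp obtained from wood by kraft cooking), so this difference is described below without a test. RNA came from cambial scrapings of trees in the Meunna and Florentine trials, labelled as xylem of trees of 20 years. By the paper's dates both trials were established in the same year and sampled in different years, so the age of the trees also differed between trials. No treatment was applied and no genotype is named. Each trial gave 3 bulks of low KPY trees and 3 bulks of high KPY trees, each bulk being the pooled RNA of several trees, so tests measure the spread between bulks and not between trees. In the trees sampled, KPY was positively related to stem diameter, so pulp yield and growth cannot be told apart in the classes.

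GATA factors are zinc finger proteins named after the DNA motif they bind. In Arabidopsis, GATA12 belongs to class I of the family, is repressed by gibberellin signalling in seeds, and can switch on VND7, the NAC factor that drives the formation of xylem vessels. VND factors, the NST factors of fibres and the MYB factors they activate form the cascade through which Arabidopsis lays down cellulose, xylan and lignin in secondary walls. None of this was measured here beyond the RNA of the genes themselves.

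The libraries held 49489614 to 89987549 counts in Meunna and 44538273 to 53775708 counts in Florentine, and a level of 1 CPM, a count scaled to the size of its library, stood on average for 71.5 and 47.6 counts. TMM scaling factors, which correct library sizes for differences in RNA composition, were 1.08 to 1.17 in the low KPY bulks and 0.857 to 0.946 in the high KPY bulks, so scaling separated the classes in both trials. Markers of developing xylem (CesA4, CesA7, CesA8, LAC17 and XCP1) were expressed in every bulk, and 4 of the 5, all but XCP1, fell in low KPY in each trial at a false discovery rate of 0.05, where 16.9% of all Meunna and 20% of all Florentine transcripts fell. Their summed level, made up mostly of the CesA genes, was 945 to 1609 CPM in low KPY against 5542 to 6895 CPM in high KPY in Meunna, and 2059 to 5574 CPM against 10044 to 12037 CPM in Florentine. The markers here and below were chosen with earlier results of these data known, so the counts of those that fell are not independent evidence. The part of the marker difference in the results was not tested. In such bulk tissue, fewer cells of a type and less RNA per cell cannot be told apart.

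Eucgr.C00602 was about 4-fold lower in low KPY in both trials. In Meunna it had 187, 78 and 56 counts in low KPY bulks 1, 2 and 3, against 462, 439 and 477 counts in high KPY bulks 1, 2 and 3. Normalized for library size and composition these were 2.44, 1.08 and 1.00 CPM in low KPY and 6.24, 5.38 and 7.36 CPM in high KPY. The classes did not overlap, and bulk 1 exceeded the other low KPY bulks by a larger ratio than any pair of high KPY bulks showed. In Florentine there were 87, 80 and 117 counts in low KPY and 250, 301 and 305 counts in high KPY. These gave 1.82, 1.36 and 1.98 CPM in low KPY and 6.17, 7.14 and 7.56 CPM in high KPY. All low KPY bulks again lay below all high KPY bulks, and here the low KPY bulks were close to each other.

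The mean was 1.51 ± 0.806 CPM in low KPY and 6.33 ± 0.992 CPM in high KPY in Meunna, and 1.72 ± 0.323 CPM in low KPY and 6.96 ± 0.710 CPM in high KPY in Florentine (SD, n = 3 bulks each). The log2 fold change, low over high KPY, was -2.07 (SE 0.41) in Meunna and -2.02 (SE 0.21) in Florentine, which are 4.19-fold and 4.05-fold lower levels. Classes without overlap were common in these tables, at 49.1% of all Meunna and 58.3% of all Florentine transcripts. At a false discovery rate (FDR) of 0.05, 16.9% of Meunna and 20% of Florentine transcripts were lower in low KPY. Since this contrast chose the gene, nothing is read from its place among them. Of the 16184 genes in both tables, 18 fell further in both trials. In Meunna alone 3.13% of the genes had a larger fall, and in Florentine alone 0.185%. A place near the top follows from how the gene was chosen, so these ranks are a description.

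The Meunna value leaned on low KPY bulk 1. Without that bulk the log2 fold change was -2.59, and without any other single Meunna bulk it lay between -2.17 and -1.82. Leaving out single Florentine bulks gave -2.13 to -1.87. The coefficient of variation was 53.5% in Meunna low KPY, 15.7% in Meunna high KPY, 18.8% in Florentine low KPY and 10.2% in Florentine high KPY. Counting error alone gives 4.58% to 13.4% over the 12 libraries, the most in the low KPY bulks, where counts were lowest.

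**Figure D1:**
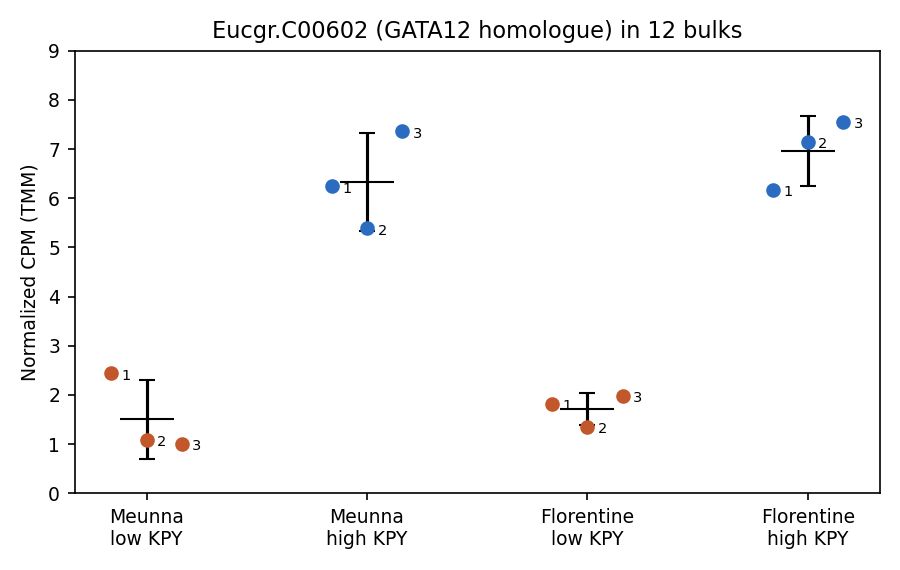
Normalized CPM of Eucgr.C00602 (vertical axis, TMM scaling within each trial) in the 12 bulks, by trial and KPY class. Points are bulks with their numbers, and horizontal and vertical bars give the mean and SD of 3 bulks. Low KPY bulks lie between 1.00 and 2.44 CPM and high KPY bulks between 5.38 and 7.56 CPM.

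The order of bulks within the low KPY class was shared in part with the transcripts that fell. In Meunna, bulk 1 was the highest low KPY bulk for Eucgr.C00602, as it was for 29.4% of all transcripts and 52.4% of those that fell. The lowest was bulk 3, whereas bulk 2 was the lowest for 59.9% of the Meunna transcripts that fell. In Florentine, bulk 2 was the lowest low KPY bulk, as it was for 41.1% of all transcripts and 89.4% of those that fell. The highest was bulk 3, whereas bulk 1 was the highest for 76.6% of the Florentine transcripts that fell. At 1 end of the order the gene thus matched most transcripts that fell, and at the other end it did not. Bulk 1 of Meunna and bulk 2 of Florentine are the bulks in which the 5 xylem markers also had their highest summed level in Meunna low KPY, 1609 CPM, and their lowest in Florentine low KPY, 2059 CPM. At the other ends the markers differed from the gene. Their sum was lowest in Meunna low KPY bulk 2, 945 CPM, and highest in Florentine low KPY bulk 1, 5574 CPM.

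Set against transcripts of like abundance, Eucgr.C00602 varied between bulks of a class to an ordinary extent in Meunna and to a small extent in Florentine. Its mean log2 CPM was 1.58 in Meunna and 1.80 in Florentine, with 27.4% and 27.9% of transcripts below it, and it was compared with the 500 transcripts nearest to it in mean log2 CPM. The SD of log2 CPM within classes was 0.52 in Meunna, where the 500 transcripts had a median of 0.44 and quartiles of 0.29 and 0.65. This placed the gene at percentile 58.4. In Florentine the SD was 0.22 against a median of 0.33 and quartiles of 0.22 and 0.52, at percentile 25.6. Both percentiles moved with single bulks. Without Meunna low KPY bulk 1 the Meunna percentile was 10.6, and without Florentine low KPY bulk 1 or 2 the Florentine percentile was 40.6 or 12.6.

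By class, the SD of the low KPY bulks stood at percentile 75.6 in Meunna and 44.6 in Florentine, and that of the high KPY bulks at 28.4 in Meunna and 22.8 in Florentine. The 500 transcripts were matched on the mean over both classes and not within a class. Mean log2 CPM of the gene was 0.50 in low KPY and 2.66 in high KPY in Meunna, and 0.80 and 2.80 in Florentine. Percentiles by class thus also depend on abundance. The SD itself was smaller in high KPY than in low KPY, 0.22 against 0.70 in Meunna and 0.15 against 0.28 in Florentine. Among the 500 transcripts of like abundance, 16 in Meunna and 3 in Florentine had a more negative log2 fold change than Eucgr.C00602. This is a description, because the gene was chosen for its fall. Of the same 500, 38 in Meunna (7.6%) and 51 in Florentine (10.2%) were called lower in low KPY, and 45 and 87 higher, and their median log2 fold change was 0.08 and 0.07. Over all transcripts the share called lower was 16.9% and 20%, and the difference from these shares was not tested.

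**Figure D2:**
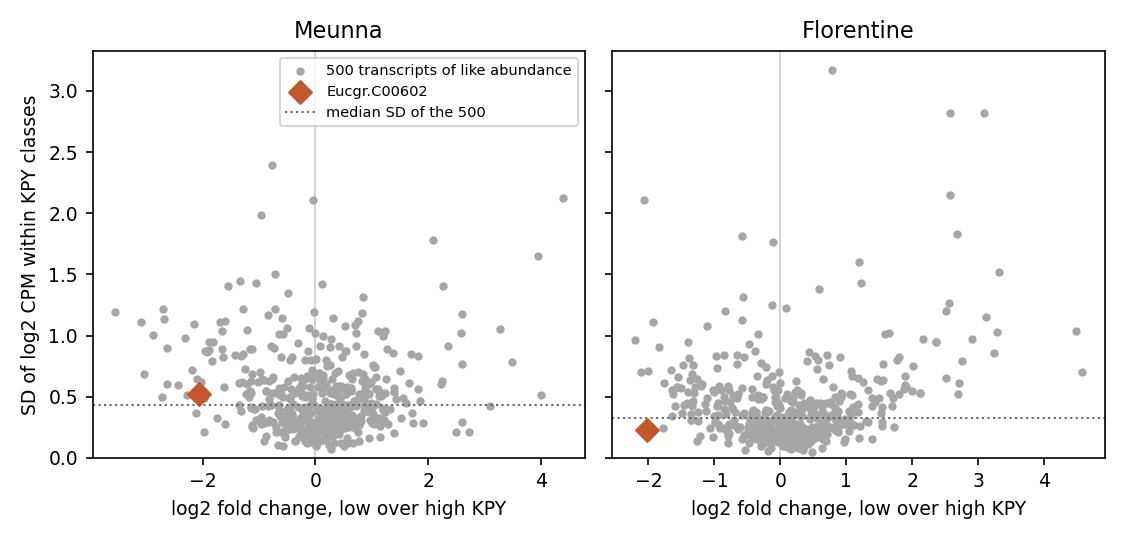
SD of log2 CPM within KPY classes (vertical axis) against the log2 fold change, low over high KPY (horizontal axis), for Eucgr.C00602 (diamond) and the 500 transcripts nearest to it in mean log2 CPM (points), in Meunna (left) and Florentine (right). The dotted line is the median SD of the 500, 0.44 in Meunna and 0.33 in Florentine; the gene lies above it in Meunna and below it in Florentine. In Meunna 16 and in Florentine 3 of the 500 lie to its left, a place that follows from how the gene was chosen.

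Between the trials, a contrast on which the gene was not chosen, no difference in Eucgr.C00602 passed the test. In a fit of all 12 libraries over the 16184 shared genes, the mean was 1.71 CPM in Meunna and 2.12 CPM in Florentine for low KPY, and 6.75 CPM in Meunna and 8.33 CPM in Florentine for high KPY. The log2 fold change, Meunna over Florentine, was -0.31 (SE 0.33) for low KPY and -0.30 (SE 0.32) for high KPY, with adjusted p of 0.506 and 0.50 by edgeR's quasi-likelihood test with Benjamini-Hochberg adjustment over the 16184 genes. In this contrast 29.2% of genes were called for low KPY and 28.9% for high KPY. From high to low the order was therefore Florentine high KPY, Meunna high KPY, Florentine low KPY and Meunna low KPY, and neighbours of the same class did not pass the test. Without Meunna low KPY bulk 1 the low KPY difference was -0.85 with an adjusted p of 0.0253. The trials were sequenced apart and their transcripts predicted apart. They also differed in the time of sampling, and with it the age of the trees, and in the number of trees per bulk. None of these can be told apart from the trial. The log2 fold change between KPY classes differed between trials by -0.01 (SE 0.43, Meunna minus Florentine), which is given without a test.

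Eucgr.C00556 and Eucgr.J02947 are also annotated as GATA12. If their sequences are close, reads can be shared or split between the copies, and this could not be examined with count tables, so the separate values of the copies are uncertain. Eucgr.C00556 had 2.02, 0.943 and 1.11 CPM in Meunna low KPY against 5.54, 4.35 and 5.49 CPM in Meunna high KPY. In Florentine it had 1.29, 0.966 and 1.07 CPM in low KPY against 3.65, 3.91 and 3.72 CPM in high KPY. Like those of Eucgr.C00602, its classes were apart in both trials, as in 49.1% of all Meunna and 58.3% of all Florentine transcripts. Within low KPY both copies were highest in Meunna bulk 1 and lowest in Florentine bulk 2. At the other ends they differed. Eucgr.C00556 was lowest in Meunna bulk 2 and highest in Florentine bulk 1, where Eucgr.C00602 had bulk 3 in both. The log2 fold change of Eucgr.C00556 was -1.91 (SE 0.36) in Meunna and -1.76 (SE 0.21) in Florentine. Adjusted p was 0.0108 and 0.0148 by edgeR's quasi-likelihood test.

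The ratio of counts, Eucgr.C00602 over Eucgr.C00556, was 1.21, 1.15 and 0.903 in Meunna low KPY and 1.13, 1.24 and 1.34 in Meunna high KPY. In Florentine it was 1.40, 1.40 and 1.86 in low KPY and 1.69, 1.82 and 2.03 in high KPY. The ratio thus overlapped between the classes in both trials, and every Florentine ratio was above every Meunna ratio. Transcript lengths are not in the tables, so a ratio above 1 does not say which copy had more molecules. The ratios are a description, because the gene was chosen for its fall.

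Eucgr.J02947, the third GATA12 homologue, had 3.45, 1.46 and 1.45 CPM in Meunna low KPY against 8.49, 6.91 and 5.99 CPM in Meunna high KPY. In Florentine it had 6.66, 3.32 and 6.02 CPM in low KPY against 12.4, 10.6 and 12.3 CPM in high KPY. Classes did not overlap, and the log2 fold change was -1.75 (SE 0.40) in Meunna and -1.15 (SE 0.27) in Florentine, with adjusted p of 0.0212 and 0.0217 by edgeR's quasi-likelihood test. The gene has 2 transcripts in each table, and those of Meunna hold identical counts. Between trials it was lower in Meunna low KPY than in Florentine low KPY, by -1.45 on the log2 scale (SE 0.37, adjusted p = 0.0147 by edgeR's quasi-likelihood test). For high KPY the value was -0.89 (adjusted p = 0.0872).

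Counting the copies of GATA12, 8 further genes of both tables that are annotated as GATA factors were examined, and 7 of these fell and 1 rose in low KPY in each trial. Their median log2 fold change was -1.83 in Meunna and -1.26 in Florentine, against 0.00 and 0.02 over all transcripts. Over all transcripts 28% of Meunna and 39.5% of Florentine were called in either direction, and 11.1% and 19.5% rose. These GATA factors were taken from tables of transcripts that the study had called on the same libraries. Neither their number past the threshold nor their median is therefore independent evidence. The deposited counts keep only transcripts that reached 1 CPM in at least 3 libraries. In Meunna, Eucgr.C03048, 1 of the 7 that fell, did so in the high KPY bulks alone. This filter set its Meunna direction in part, and the gene is included in the Meunna count and median. A GATA gene that the study had not called could not enter the list, which need not be the whole family.

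Besides the GATA12 copies, class I held Eucgr.J02392 (GATA5) and both homologues of GATA8, a regulator of seed germination in Arabidopsis also called BME3. Eucgr.G02840 (GATA8) had 51.4, 36.3 and 37.3 CPM in Meunna low KPY against 160, 183 and 220 CPM in Meunna high KPY. In Florentine it had 107, 46.4 and 78.4 CPM in low KPY against 247, 215 and 260 CPM in high KPY. Its log2 fold change was -2.17 (SE 0.19) and -1.64 (SE 0.29), with adjusted p of 0.00257 and 0.0152. The other homologue, Eucgr.J01083, fell by 1.31 and 1.37 on the log2 scale in Meunna and Florentine. Eucgr.J02392 fell by 1.92 and 1.15, while its second, less abundant Meunna transcript had -1.63 with an adjusted p of 0.0702.

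Class II held Eucgr.A00193 (GATA16) and Eucgr.C03048. Eucgr.C03048 is a homologue of CGA1, which in Arabidopsis answers to cytokinin and promotes chloroplast development. Eucgr.A00193 fell by 0.93 in Meunna and by 0.81 in Florentine on the log2 scale. Eucgr.C03048 had 0.104, 0.166 and 0.107 CPM in Meunna low KPY, 26 counts in all, against 2.16, 1.90 and 3.69 CPM in Meunna high KPY. In Florentine it had 1.86, 0.712 and 1.86 CPM in low KPY against 3.88, 5.17 and 2.77 CPM in high KPY. Its log2 fold change was -4.33 (SE 0.44) in Meunna and -1.42 (SE 0.43) in Florentine. In Meunna it reached 1 CPM in the high KPY bulks alone. The deposited counts keep only transcripts at 1 CPM in at least 3 libraries, so this filter set its Meunna direction in part. Of the markers of green tissue, 2 of 3 fell in Meunna, where PSBY did not pass the test (-0.55, adjusted p = 0.337), and 4 of 4 fell in Florentine. Their summed level, made up mostly of PSAP, was 48.2 to 74.2 CPM in low KPY against 109 to 166 CPM in high KPY over 3 markers in Meunna, and 53.9 to 89.9 CPM against 153 to 170 CPM over 4 in Florentine. Over all transcripts, 16.9% in Meunna and 20% in Florentine fell. The green markers, too, were chosen with earlier results known, and their part in the result was not tested.

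Eucgr.D02129, a homologue of GATA26, was the GATA factor that rose. It had 26.3, 31.6 and 28.6 CPM in Meunna low KPY against 18.3, 22.3 and 17.1 CPM in Meunna high KPY. In Florentine it had 23.9, 37.2 and 27.0 CPM in low KPY against 14.0, 14.8 and 13.4 CPM in high KPY. Low KPY bulks were above all high KPY bulks in both trials. The log2 fold change was 0.58 (SE 0.15) in Meunna and 1.06 (SE 0.18) in Florentine, with adjusted p of 0.0293 and 0.0149 by edgeR's quasi-likelihood test. In Florentine, bulk 2 of low KPY was the highest for this gene and the lowest for Eucgr.C00602.

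**Figure D3:**
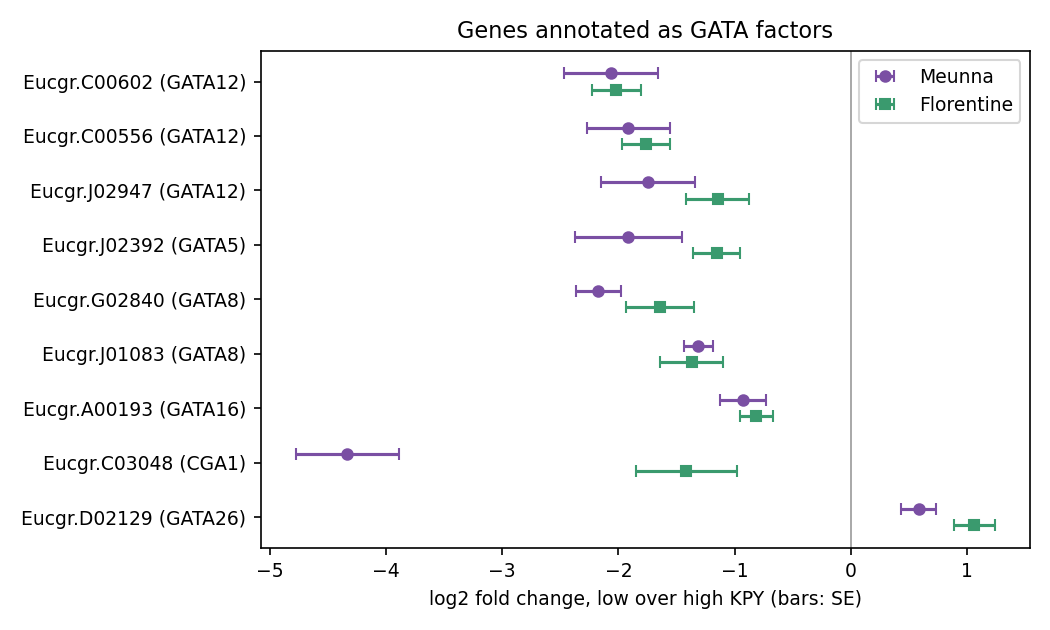
Log2 fold change, low over high KPY (horizontal axis, bars give the SE), of the 9 genes examined that are annotated as GATA factors, in Meunna (circles) and Florentine (squares), with Eucgr.C00602 at the top. Eucgr.C00602 is at -2.07 and -2.02, Eucgr.C03048 is at -4.33 and -1.42, and Eucgr.D02129 alone is above 0.

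Several of these calls rested on single bulks. In Meunna, leaving out bulks 1 to 3 of a class in turn left 5 to 8 of the 8 GATA factors past the threshold. Eucgr.J02947 was lost without low KPY bulk 2 or 3 or high KPY bulk 1 or 2, Eucgr.J02392 without low or high KPY bulk 3, and Eucgr.D02129 without low KPY bulk 2 or 3 or high KPY bulk 1 or 3. In Florentine, edgeR's quasi-likelihood test called 0 of 23917 transcripts without high KPY bulk 1 or 3, with 10009 and 9701 of them at an unadjusted p under 0.05. Adjusted p of the 8 GATA factors was then 0.0575 to 0.0996 and 0.0512 to 0.0676. By edgeR's exact test on the same libraries 6438 and 6315 transcripts were called, and 8 of the 8 GATA factors. Without Florentine low KPY bulk 3 the quasi-likelihood test called 5 of the 8, losing Eucgr.J02947, Eucgr.J01083 and Eucgr.C03048. Eucgr.C03048 was also lost without low KPY bulk 2 or high KPY bulk 2.

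A further description of GATA type is carried by WLIM proteins, which in plants bundle actin filaments through LIM domains. Both WLIM1 homologues fell, Eucgr.F02243 by 2.02 and 1.59 and Eucgr.F00087 by 1.90 and 1.25 on the log2 scale in Meunna and Florentine. Of all transcripts, 16.9% in Meunna and 20% in Florentine fell. WLIM genes, too, were chosen with earlier results of these data known, so their falls are not independent evidence. Eucgr.F02243 had 211, 118 and 125 CPM in Meunna low KPY against 506, 566 and 774 CPM in Meunna high KPY. Eucgr.D01873, a WLIM2b homologue of the Florentine table, had a log2 fold change of -1.12 with an adjusted p of 0.0695.

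The listed regulators of xylem and secondary walls were mostly lower in low KPY as well. They are a general set whose relation to GATA12 was not examined, and VND7 is not among them. Of 26 regulators of xylem and secondary walls, 25 were in the Meunna table, where 22 fell, 0 rose and 3 did not pass the test. In Florentine 22 of 26 fell, 1 rose and 3 did not pass. The 22 include Eucgr.D00593, which passed the filter of the deposited counts through the high KPY bulks alone, so its direction was set in part by the filter. Over all transcripts, 16.9% in Meunna and 20% in Florentine fell. The median log2 fold change of the regulators was -1.72 in Meunna and -1.07 in Florentine, against 0.00 and 0.02 over all transcripts. Most of these regulators were taken from tables of transcripts or alleles that the study had called on the same libraries, so neither the counts nor the medians are independent evidence. In Florentine 9 of the 26 were called without low KPY bulk 3 and 0 without high KPY bulk 1 or 3, where edgeR's exact test called 22 and 23.

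Among NAC factors, 9 of 10 fell in Meunna, and in Florentine 8 of 11 fell and 1 rose. Of all transcripts, 16.9% fell in Meunna, and in Florentine 20% fell and 19.5% rose. The Florentine 8 include NAC075, whose direction was set in part by the filter of the deposited counts. NAC075, which like GATA12 can activate VND7 in Arabidopsis, was in the Florentine table as Eucgr.D00593. It had 0.501, 0.644 and 0.693 CPM in low KPY against 2.00, 1.40 and 1.59 CPM in high KPY. Its log2 fold change was -1.43 (SE 0.27, adjusted p = 0.0157 by edgeR's quasi-likelihood test). Only transcripts that reached 1 CPM in at least 3 libraries were kept in the deposited counts. Eucgr.D00593 did so in the high KPY bulks alone, so this filter set its direction in part and the test is no support for a fall. The vessel factor VND1 (Eucgr.I02366) fell by 1.72 in Meunna and by 1.27 in Florentine. Eucgr.A02887, a VND4 homologue, fell by 1.87 and 1.03, while the second VND4 homologue, Eucgr.D02027, had -1.84 in Meunna (adjusted p = 0.0297) and -0.12 in Florentine (adjusted p = 0.729). The Meunna call of Eucgr.D02027 was lost on leaving out any Meunna bulk but low KPY bulk 1, with adjusted p up to 0.0943.

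Of the fibre factors, NST2 (Eucgr.D01671) fell by 1.95 and 1.22 and NST3 (Eucgr.E01053) by 1.85 and 1.17 in Meunna and Florentine. For the repressors of xylem differentiation the calls differed between the trials. XND1 (Eucgr.I02695) fell by 1.44 in Meunna and had 0.24 in Florentine (adjusted p = 0.626). VNI2 (Eucgr.B03537), which interferes with VND7, had 0.35 in Meunna (adjusted p = 0.144) and rose by 0.72 in Florentine. It passed the test in Meunna as well when scaled by library size only (0.65, adjusted p = 0.0179) or without low KPY bulk 2 (0.52, adjusted p = 0.0344).

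Among MYB factors 8 of 9 fell in Meunna and 9 of 9 in Florentine. MYB46 and MYB83, the switches below the VND and NST factors, had log2 fold changes of -1.76 and -2.27 in Meunna and of -1.26 and -1.37 in Florentine. Class III HD-ZIP factors, which pattern cambium and xylem, had smaller falls: 4 of 4 fell in both trials, with medians of -0.84 and -0.74. Of all transcripts, 16.9% in Meunna and 20% in Florentine fell. The MYB and HD-ZIP genes belong to the list of regulators above, so their counts and medians are not independent evidence either. The Meunna call of PHB (Eucgr.D00184, adjusted p = 0.04) was lost on leaving out any Meunna bulk, and the Florentine calls of REV (Eucgr.B02504) and HB8 (Eucgr.C00605) were lost without high KPY bulk 2, with adjusted p of 0.0542 and 0.052. KNAT1 (Eucgr.F00106), a homeobox gene of the meristem, had 0.01 in Meunna (adjusted p = 0.954) and 0.20 in Florentine (adjusted p = 0.163), so the fall was not shared by every regulator of the cambial zone. Scaled by library size only, KNAT1 rose in both trials (0.31 with an adjusted p of 0.0398 and 0.52 with an adjusted p of 0.017).

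Of 11 laccases and xylem peptidases, which polymerise lignin or act in the death of xylem cells, 9 fell in Meunna, where 11 were listed, and 6 fell in Florentine, where 9 were listed. The rest did not pass the test, and over all transcripts 16.9% and 20% fell. The median log2 fold change of the listed genes was -2.14 in Meunna and -1.27 in Florentine. This list was chosen with earlier results of these data known, so its counts and medians are not independent evidence. In Meunna the laccases Eucgr.B02438 and Eucgr.B02795 reached 1 CPM in high KPY bulks alone, so the filter of the deposited counts set their direction in part. Of the peptidases, XCP1 (Eucgr.F03589) had -1.45 in Meunna (adjusted p = 0.058) and 0.04 in Florentine (adjusted p = 0.891), and passed the test in Meunna by DESeq2 (-1.41, adjusted p = 0.00798) and without low KPY bulk 1 (-1.99, adjusted p = 0.0299). XSP1 (Eucgr.D02423) fell by 1.66 in Meunna and had 0.28 in Florentine (adjusted p = 0.429). The XSP1 call was lost on leaving out any Meunna bulk but low KPY bulk 1. The difference between the trials did not pass edgeR's quasi-likelihood test in the VND4 homologue Eucgr.D02027, XND1, XSP1 or XCP1, with adjusted p of 0.516 to 0.676 for the interaction of trial and KPY, which was called in 0 of 16184 genes (1166 at an unadjusted p under 0.05, and 113 called by DESeq2). Of the cambium markers PXY and HB8, 2 of 2 fell in both trials. The phloem marker PP2-B10 was at 0.153 to 0.662 CPM in low KPY against 1.78 to 3.44 CPM in high KPY in Meunna, and at 0.203 to 1.11 CPM against 1.23 to 2.18 CPM in Florentine. In Meunna it passed the filter of the deposited counts through the high KPY bulks alone, so its direction there was set in part by the filter.

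**Figure D4:**
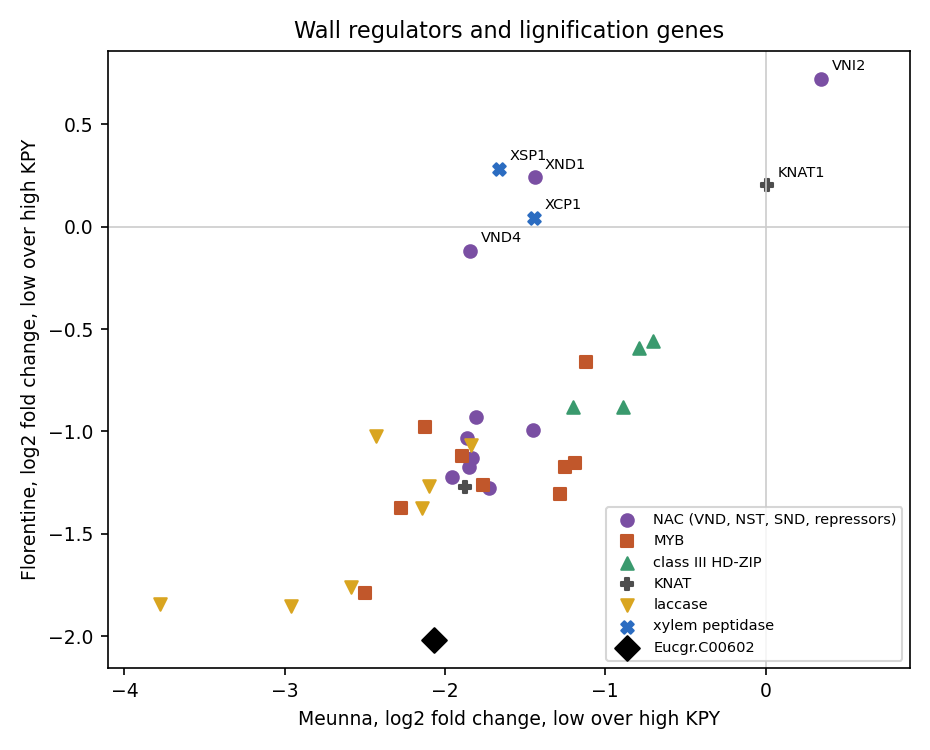
Log2 fold change, low over high KPY, in Florentine (vertical axis) against Meunna (horizontal axis) for the wall regulators, laccases and xylem peptidases listed in both tables, by role, with Eucgr.C00602 as a black diamond at -2.07 and -2.02. Most genes are below 0 on both axes, while XSP1, XND1, XCP1, VNI2 and KNAT1 are above 0 on the Florentine axis. The VND4 label marks Eucgr.D02027.

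The genes whose profile was most like that of Eucgr.C00602 were ranked by the root mean square difference of log2 CPM, centred within a trial, over the 6 bulks of a trial, taking the larger of both trials. Since the profile is dominated by the contrast that chose the gene, the ranking is a description. Of 16183 genes, the closest was the GATA12 copy Eucgr.C00556, with a difference of 0.20, against a median of 1.18 over all genes. It was followed by Eucgr.C03707, a protein with the unannotated domain DUF1005, at 0.24. Only these genes were under 0.25.

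Places 3 to 10 lay between 0.28 and 0.30. They held Eucgr.H01337, a homologue of MYB61, a MYB factor of walls and stomata in Arabidopsis, and Eucgr.B03054, galacturonosyltransferase-like 3, of a family of enzymes that build pectin or xylan. They also held Eucgr.F00358, related to EXORDIUM and annotated as phosphate-responsive 1, the phosphodiesterase Eucgr.I00908, the DUF868 protein Eucgr.B01716, the RING/U-box protein Eucgr.A02565, and Eucgr.K02134 and Eucgr.D01366 of unknown function. In Meunna, Eucgr.C03707 had 3.00, 2.18 and 1.99 CPM in low KPY against 9.55, 8.77 and 13.0 CPM in high KPY. In Florentine it had 5.78, 3.19 and 5.60 CPM in low KPY against 13.6, 16.1 and 14.5 CPM in high KPY. Its low KPY bulks kept the order seen in Eucgr.C00602 in Meunna, while in Florentine bulk 1 and not bulk 3 was the highest.

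Only the leading places of this ranking were stable. Over 16 alternatives, which changed the scaling, the prior count, the match between trials, the measure of likeness or the bulks used, Eucgr.C00556 stayed among the 10 closest in 16 and Eucgr.C03707 in 15, while the other 8 stayed in 6 to 11. Ranking by Pearson's r in place of the difference in size left 1 of the 10, and leaving out single bulks left 2 to 8, with 2 without Florentine low KPY bulk 1, 3 without Meunna low KPY bulk 3, and 4 without Meunna low KPY bulk 1 or Florentine high KPY bulk 2. Eucgr.G02840 (GATA8) had rank 14, Eucgr.F02243 (WLIM1) rank 42, and the xylem markers CesA4, CesA7 and CesA8 ranks 82, 113 and 171. The third GATA12 homologue, Eucgr.J02947, had rank 392 with a difference of 0.46.

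**Figure D5:**
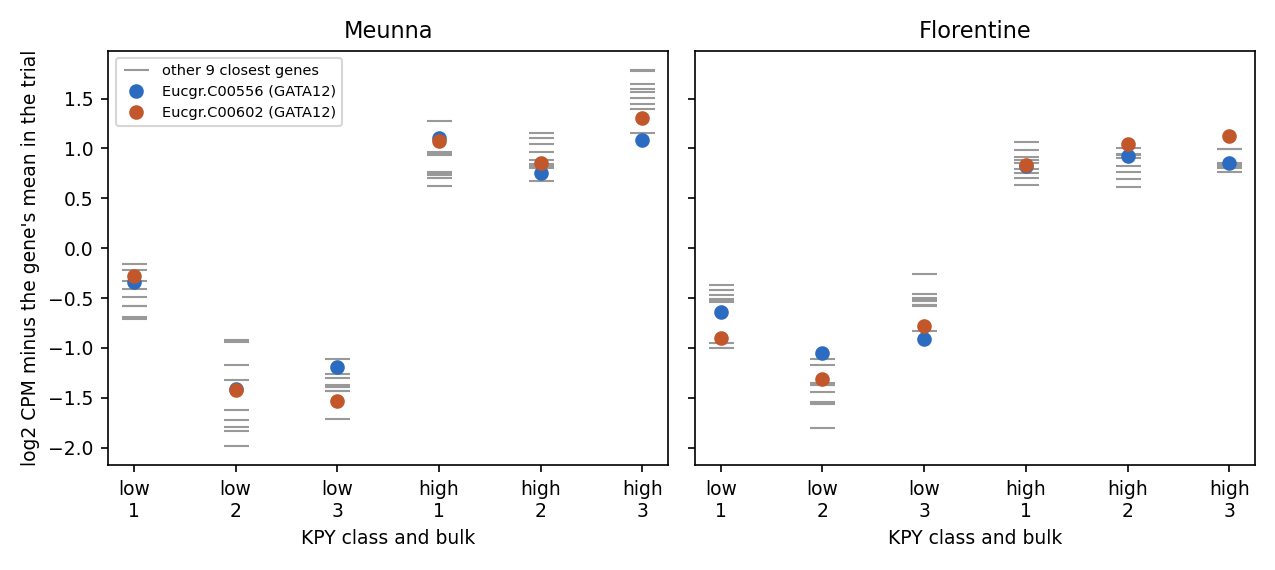
Log2 CPM minus the mean of the gene in the trial (vertical axis) in the 6 bulks of Meunna (left) and Florentine (right), by KPY class and bulk number (horizontal axis), for Eucgr.C00602, its copy Eucgr.C00556 and the other 9 of the 10 closest genes. Every point of the low KPY bulks is below 0 and every point of the high KPY bulks is above 0, which follows from how these genes were ranked.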

How the data were processed

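Adapters and poor reads were removed by the authors (CLC Genomics Workbench, Popoolation), the reads of a trial were pooled and aligned to E. grandis by TopHat with Bowtie, Cufflinks built the transcripts, and BEDtools gave the counts per bulk. The genome build was not given in the sources used here. They deposited 1 table of raw counts per trial, in which every transcript reaches 1 CPM in at least 3 libraries. Rows without a gene (5.16% and 4.30% of counts) stayed in the fits as transcripts.

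Counts were fitted per trial in R 4.3.3 with edgeR 4.0.16 (TMM, quasi-likelihood F test, KPY class alone, Benjamini-Hochberg, FDR 0.05), and the trials were compared in a fit of 12 libraries. The SE is the size of the log2 fold change divided by the square root of F. Log2 CPM used a prior count of 2. Counting error was taken as that of a Poisson count and does not cover other error. A gene with several transcripts was described by the most abundant. Genes named were the GATA and WLIM genes, wall regulators by role, markers and the 10 closest genes. The gene and the lists were chosen with earlier results of these data known. Alternatives were edgeR's exact test, DESeq2 1.42.0, other scalings, filterByExpr, the replicate number as a block, other windows, and leaving out each library. The exact test with a library left out and the test of trial by KPY were chosen after seeing the data. The quasi-likelihood test was tried on simulated data for the KPY contrast of each trial and for the trials in low KPY.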

Additional observations from a re-analysis of the deposited data

Results flagged for a closer look

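The fall of Eucgr.C03048, the CGA1 homologue, differed between the trials in 1 of the tests run. Its log2 fold change, low over high KPY, differed by -2.87, Meunna minus Florentine. DESeq2 gave an adjusted p of 0.0143 for this difference, and edgeR's quasi-likelihood test an unadjusted p of 0.000647 and an adjusted p of 0.394. Both tests ran over 16184 genes. The quasi-likelihood test called 0 of them, with 1166 at an unadjusted p under 0.05 and a smallest adjusted p of 0.111, while DESeq2 called 113. Of the 44 listed genes in that fit, DESeq2 called 1. The Meunna low KPY value rests on 26 counts in 3 bulks. In Meunna the gene passed the filter of the deposited counts, 1 CPM in at least 3 libraries, through the high KPY bulks alone. The direction of its Meunna fall was thus set in part by the filter.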

How the results depend on the processing

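Eucgr.C00602 was lower in low KPY in both trials under every alternative run. Its log2 fold change reached -2.59 to -1.82 in Meunna on leaving out single bulks, and -1.77 in Meunna and -1.71 in Florentine when scaled by library size only, where the median of all transcripts shifts to 0.30 and 0.33. By the quasi-likelihood test, leaving out single bulks left 5 to 8 GATA factors called in Meunna and 0 to 8 in Florentine. By the same test it left 20 or 21 wall regulators in Meunna (22 or 23 by the exact test) and 0 to 23 in Florentine (0 and 9 being without high KPY bulk 1 or 3 and without low KPY bulk 3). It gave percentiles of the spread of 10.6 to 75.8 in Meunna and 12.6 to 40.6 in Florentine, and 2 to 8 shared closest genes, where Pearson's r gave 1. The difference between trials ran from -0.85 to -0.074 for low KPY. Signs turned only in genes that did not pass the test: on leaving out single bulks, KNAT1 in Meunna ran from -0.047 to 0.067 (-0.0022 without low KPY bulk 2), and in Florentine the VND4 homologue Eucgr.D02027 from -0.24 to 0.074 (0.044 without low KPY bulk 2, 0.19 by library size only), XND1 from -0.26 to 0.51 and XCP1 from -0.17 to 0.24 (-0.0036 without low KPY bulk 1). The cause was not tested. Bulks sharing a number did not deviate together (r of -0.08, 0.04 and 0.12 in Meunna and -0.08, 0.26 and -0.01 in Florentine). With the replicate number as a block, the log2 fold change of Eucgr.C00602 was -2.18 and -2.03, 8 and 7 GATA factors were called, Eucgr.C03048 being lost in Florentine (adjusted p = 0.0918), and 22 and 23 wall regulators. In Florentine the call of Eucgr.C03048 was also lost by library size only (adjusted p = 0.0627). Depth limits genes near 1 CPM, such as Eucgr.C00602, where a low KPY bulk held as few as 56 counts.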
